A study of Mus musculus with 11 samples.

Results

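The neurons described here are cells of the E14.5 mouse dorsal telencephalon that held transcripts of Fezf2 and of the excitatory neuron factor Neurod6 and few or none of Hs3st4. They were chosen on raw unique molecular identifier (UMI) counts per cell barcode, each UMI standing for 1 captured transcript. A barcode with at least 1000 detected genes and at most 10% mitochondrial UMIs was taken when it held at least 2 UMIs of Fezf2 and at least 2 of Neurod6. It could hold at most 2 UMIs of Hs3st4, 5 of Nrp1, Rnd2 and Ndst3 summed, 2 of Neurod1, 1 of Tfap2d and 1 of Dlx1, Dlx2, Dlx5 and Dlx6os1 summed. The rule found 657 of 7554 kept WT cells (8.70%, 8.07 to 9.36) and 702 of 8781 kept cKO cells (7.99%, 7.44 to 8.58), together 1359 of 16335 cells. They are called Hs3st4-low neurons below. The levels of these 12 genes follow from the choice of cells and are given as description only.

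The study asked how Syncrip, an RNA-binding protein, shapes the order in which neocortical progenitors make neuron types. Dorsal cortex of 1 WT and 1 Syncrip cKO embryo from the same pregnant mouse was dissociated at E14.5 and sequenced by a droplet method that reads transcripts from the 3′ end. The cKO carried Syncrip alleles with loxP sites around exons 2, 3 and 4 (Syncrip fl/fl) and Emx1-Cre, which acts in the dorsal telencephalic lineage, on a C57BL/6 background; the alleles of the WT embryo were labelled only as WT. Cells of the ganglionic eminence (GE), which the dissection also held, lie outside the Emx1-Cre lineage. In the Hs3st4-low neurons Xist had 0 UMIs in WT and 9074 in cKO, while Y-linked genes had 1821 UMIs in WT and 23 in cKO, so the WT embryo was male and the cKO embryo female. With 1 library per genotype, genotype, sex, embryo and library cannot be told apart and no test was made. Levels are UMIs summed over cells and scaled to CPM, the number per 1000000 UMIs of the same cells, and values in parentheses after levels, log2 ratios and shares are exact 95% intervals that cover counting error only.

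Both libraries gave Hs3st4-low neurons of similar depth. Their median was 15295 UMIs and 4484 genes per cell in WT and 15201.5 UMIs and 4441 genes in cKO, against 12277 and 11566 UMIs over all kept cells, and their UMIs summed to 10089757 and 11142374. Scrublet called 10 of the WT and 10 of the cKO neurons doublets. Ribosomal protein genes took 11.97% of their UMIs in WT and 12.7% in cKO, and Malat1, a nuclear RNA, stood at 14548 and 15992 CPM. The libraries shared 22 barcodes, none of them among these neurons.

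Fezf2 encodes a zinc finger repressor that directs early-born projection neurons towards subcerebral targets such as the spinal cord and brainstem. Bcl11b (Ctip2) acts downstream of it in corticospinal neurons of layer V, while Tbr1, Sox5 and Tle4 mark corticothalamic neurons of layer VI. Tbr1 represses Fezf2 and Bcl11b in layer VI, and young neurons of the cortical plate often hold transcripts of more than 1 of them before one fate prevails.

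The 5 marker genes given for these cells were Fezf2, which the rule used, and Ldb2, Kctd8, Opcml and Bcl11b, which it did not. Ldb2 encodes a LIM domain-binding cofactor and lies on the minus strand at chr5:44472132-44799680 (GRCm38). It stood at 530 CPM (516 to 545) in WT neurons and 468 CPM (455 to 480) in cKO, against 133 and 123 CPM in all other kept cells. Kctd8 (chr5:69109285-69341679, minus strand), an auxiliary subunit of GABA-B receptors, had 90.4 CPM (84.6 to 96.5) in WT neurons and 138 CPM (131 to 145) in cKO, against 24.0 and 39.0 CPM in the others. Opcml (chr9:27790775-28925410, plus strand), an IgLON adhesion protein, had 1259 CPM (1237 to 1281) and 745 CPM (729 to 762), against 530 and 299 CPM. Bcl11b (chr12:107910403-108003602, minus strand) had 568 CPM (553 to 583) and 714 CPM (699 to 730), against 408 and 429 CPM. Fezf2 (chr14:12342094-12348189, minus strand) had 342 and 304 CPM, against 110 and 92.6 CPM. Thus, of the 4 markers that the rule did not use, Ldb2, Kctd8 and Opcml stood at a log2 ratio of at least 1 over the other cells in both libraries, as 1.04% of all 9122 genes with at least 200 UMIs did. Bcl11b, which GE cells also held at 601 and 588 CPM, was above the other cells by less than that. The excess of Fezf2 was fixed by the choice of cells. The other 4 markers were given with these cells, with earlier results of these data known, so their excess describes the neurons and tests nothing. The 5 markers summed to 2790 and 2370 CPM here. In neurons that met every other condition but held at least 3 Hs3st4 UMIs (Hs3st4-high), they summed to 4517 and 3710 CPM. Those with 10 or more had Bcl11b at 1088 and 1047 CPM and Opcml at 2438 and 1674 CPM. Ldb2 there had 449 and 465 CPM.

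**Figure D1:**
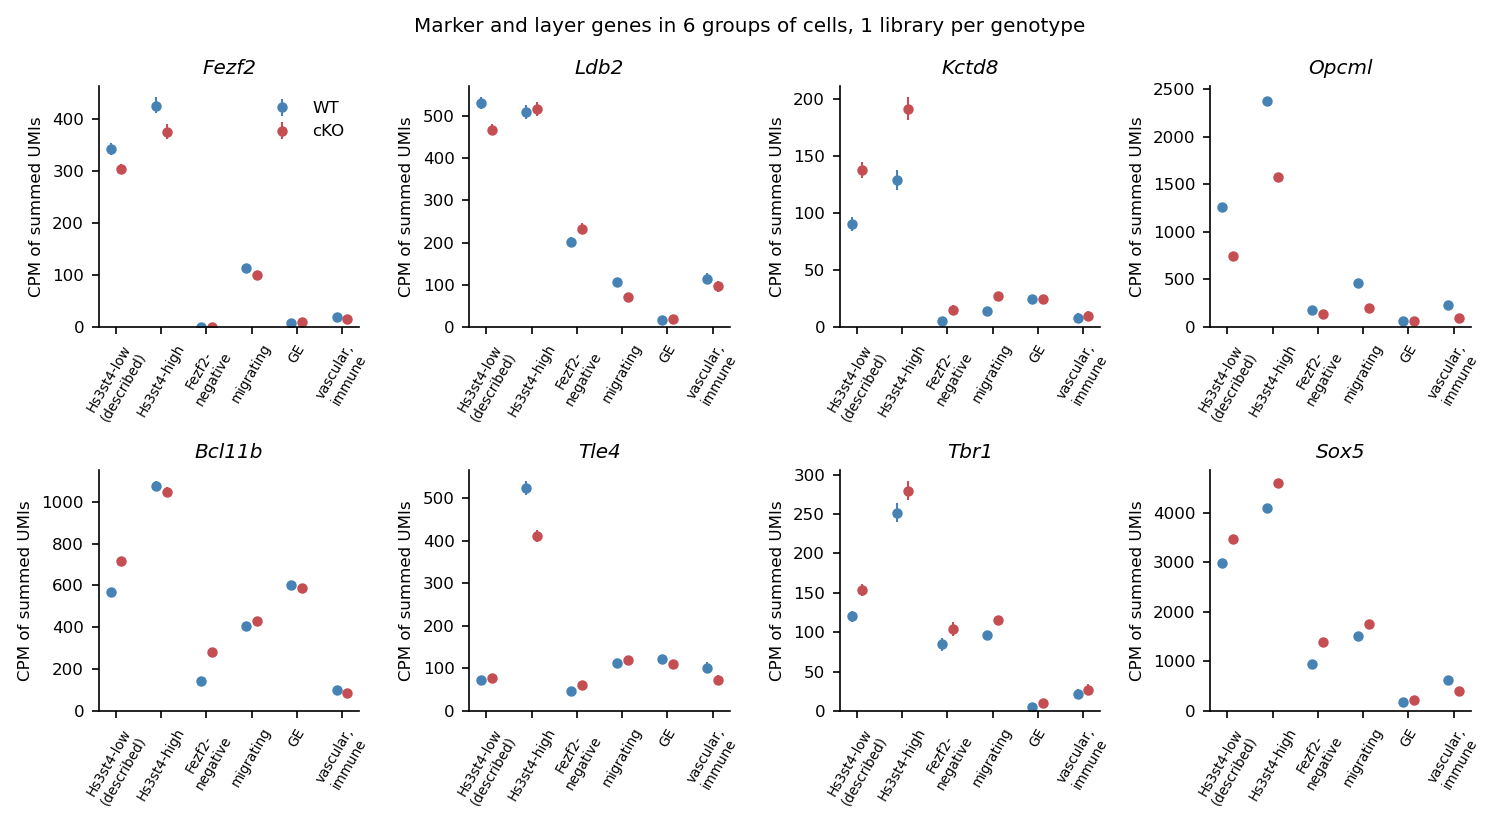
Level of 8 genes (CPM of summed UMIs, y axis) in 6 groups of cells (x axis) of the WT library (blue) and the cKO library (red); bars are exact 95% Poisson intervals and are mostly smaller than the points. The Hs3st4-low neurons lie beside the Hs3st4-high neurons for Fezf2 and Ldb2, far below them for Tle4 (72.0 against 524 CPM in WT).

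The Hs3st4-low neurons varied widely among themselves. Opcml had a median of 521 CPM per WT cell with quartiles at 0 and 1851 CPM, and 305 CPM per cKO cell with quartiles at 0 and 1094 CPM. For Bcl11b the median was 469 CPM per WT cell (quartiles 128 and 889) and 696 CPM per cKO cell (quartiles 383 and 1032). Kctd8 was at 0 UMIs in the median cell of both libraries. So the markers other than Fezf2 divided these neurons rather than being held evenly by all of them.

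These levels followed the number of Fezf2 UMIs per cell, also across the limit of the rule. Cells with 1 Fezf2 UMI that met every other condition, 241 in WT and 350 in cKO, had Bcl11b at 197 and 395 CPM and Opcml at 295 and 261 CPM. Just inside the limit, the 167 WT and 195 cKO neurons with 2 Fezf2 UMIs had Bcl11b at 270 and 478 CPM and Opcml at 504 and 293 CPM. The 290 WT and 281 cKO neurons with 5 or more Fezf2 UMIs, which were 44.1% and 40.0% of the whole, had Bcl11b at 789 and 849 CPM and Opcml at 1828 and 1015 CPM. In both libraries Bcl11b and Opcml were thus highest where Fezf2 was highest. Cells with more Fezf2 UMIs were also deeper, with medians of 12924 UMIs at 2 Fezf2 UMIs and 16712.5 at 5 or more in WT, and the part of depth was not tested.

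**Figure D2:**
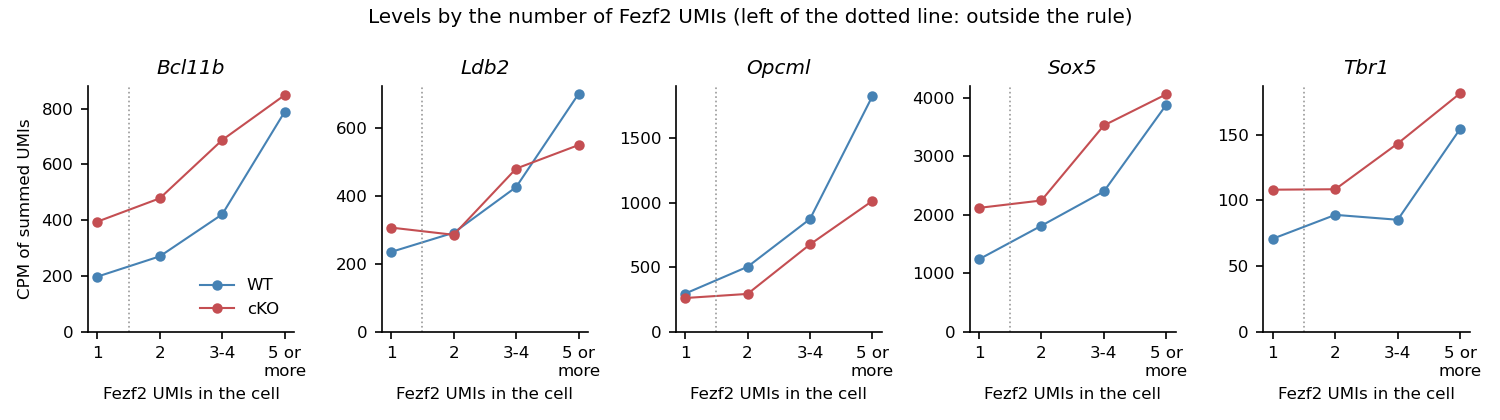
Level of 5 genes (CPM of summed UMIs, y axis) in cells grouped by their Fezf2 UMIs (x axis) in WT (blue) and cKO (red); cells left of the dotted line met every condition except that on Fezf2. All 5 genes are higher in cells with 5 or more than in cells with 2 Fezf2 UMIs, and in cells with 5 or more Fezf2 UMIs Opcml lies at 1828 CPM in WT neurons and 1015 CPM in cKO.

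Few cells lay near the limit on Hs3st4, which encodes a heparan sulfate sulfotransferase. Of the Hs3st4-low neurons, 562 in WT (85.5%) and 550 in cKO (78.3%) held no Hs3st4 UMI, and 34 and 57 held 2. Just outside, 25 WT and 42 cKO cells held 3, and 271 and 250 cells held 10 or more. Neurons with 2 Hs3st4 UMIs had Tle4 at 165 and 160 CPM, those with 3 had 124 and 133 CPM, and those with 10 or more had 654 and 552 CPM. Tle4, a corepressor of layer VI neurons, was at 72.0 CPM (66.8 to 77.4) in the WT and 77.0 CPM (71.9 to 82.3) in the cKO Hs3st4-low neurons.

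Among the 9122 genes with at least 200 UMIs in the Hs3st4-low neurons, 95 (1.04%) stood at a log2 ratio of at least 1 over the other kept cells in both libraries and 181 (1.98%) at -1 or below. Since the same cells and genes were used to choose them, this describes the neurons and tests nothing. The leading genes were Grin2a, an NMDA receptor subunit, at 13.97 CPM in WT neurons and 30.8 CPM in cKO against 3.38 and 7.08 CPM in the others, Ndrg1 at 105 and 88.6 CPM against 19.0 and 23.1 CPM, and C1ql3, a secreted C1q-like synaptic organizer, at 13.97 and 28.0 CPM against 3.21 and 7.80 CPM. Further genes chosen by rank were Ldb2, Kctd8, Nap1l5, Ccbe1, Gpr176, Kcnv1, Kirrel3, Sox5os4, Sla, Mcub, Il1rapl2, Lrfn5, Chst8, Nin, Dab1, Rspo3 and Ryr3. Kirrel3, an adhesion protein of the immunoglobulin superfamily, had 1624 CPM (1600 to 1649) in WT neurons and 1586 CPM (1563 to 1609) in cKO against 443 and 518 CPM. Dab1, the adaptor through which Reelin guides cortical neurons, had 1414 and 1307 CPM against 500 and 481 CPM. Nin (ninein), a centrosomal protein, had 279 and 282 CPM against 90.1 and 103 CPM. Rspo3, a secreted enhancer of Wnt signaling, had 275 and 287 CPM against 102 and 91.6 CPM. Of the UMIs of Il1rapl2, 70.4% in WT and 64.9% in cKO came from 1 neuron each, so its rank rests on these cells. Several of the ranked genes were not particular to the Hs3st4-low neurons. Over both libraries the 822 Hs3st4-high neurons held 17311 UMIs of Lrfn5, 7371 of Nin and 5379 of Ryr3. The 1359 Hs3st4-low neurons held 5955 in WT and 8163 in cKO of Lrfn5, 2820 and 3137 of Nin, and 2936 and 2033 of Ryr3. Grin2a went the other way, at 1.58 and 3.50 CPM in the Hs3st4-high neurons.

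On the low side, markers of other lineages led the ranking: Nxph2, Ctss, Six3, Ccl3, Bgn, Rgs5, Sst, Dgkg, Dlk1 and Gad1 had 1 to 30 UMIs per library in all Hs3st4-low neurons. Gad1, the GABA-synthesizing enzyme of interneurons, had 1.09 CPM in WT neurons and 1.08 CPM in cKO against 27.6 and 35.5 CPM in the other cells. Of genes with at least 200 UMIs in the neurons, those furthest below the other cells were Nrxn3, Erbb4, Sox2ot, Unc5d, Rbms3, Cux2, Hbb-bt, Pdzrn3, Dlgap2 and Slc17a6. Unc5d, a netrin receptor of upper layer precursors and migrating neurons, had 143 and 75.7 CPM against 1131 and 923 CPM. Cux2, a homeobox factor of upper layers, had 21.1 and 17.5 CPM against 127 and 120 CPM. One WT neuron held 57.4% of the Erbb4 UMIs of that library and 25.6% of the Sox2ot UMIs came from 1 WT neuron.

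The Hs3st4-high neurons met every other condition but held at least 3 Hs3st4 UMIs (393 in WT and 429 in cKO). Of 10224 genes, 356 stood at a log2 ratio of at least 1 in the Hs3st4-low over the Hs3st4-high neurons in both libraries and 162 at -1 or below. The most distant genes on the high side were those of dividing cells, such as Cenpf, a kinetochore protein, at 44.996 and 66.2 CPM against 2.15 and 4.44 CPM. In WT 24.2% of the Cenpf UMIs came from 1 cell. Ccnb1, a mitotic cyclin, was at 22.2 and 25.3 CPM against 2.15 and 2.56 CPM. The Hs3st4-low neurons with progenitor transcripts, described below, held most UMIs of these 2 genes. In the others Cenpf stood at 0.855 and 1.29 CPM and Ccnb1 at 0.855 and 1.51 CPM. Both genes were among the cell cycle genes used to set the cells apart, so these low levels follow from the split. The Hs3st4-high neurons were not split in this way, so their levels cannot be set against those of the others. Pou3f1, a POU factor of subcerebral neurons, had 109 CPM in WT neurons and 92.7 CPM in cKO against 8.18 and 8.88 CPM. Corticothalamic genes were on the low side: Zfpm2 (Fog2), a cofactor that layer VI neurons hold, had 113 and 115 CPM against 879 and 861 CPM. Prickle1, of the planar cell polarity pathway, had 40.2 and 51.2 CPM against 320 and 281 CPM. Sox5, a factor of early-born deep-layer neurons, differed less, at 2994 and 3480 CPM against 4106 and 4592 CPM.

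Neurons that met every condition but held no Fezf2 UMI (538 in WT and 602 in cKO) were shallower, with medians of 8930.5 and 9110 UMIs. Of 10152 genes, 110 stood at a log2 ratio of at least 1 in the Hs3st4-low neurons over them in both libraries and 127 at -1 or below. Kctd8 was first on the high side (90.4 and 138 CPM against 5.404 and 15.3 CPM), followed by Crym, a thyroid hormone-binding protein of corticospinal neurons (14.9 and 8.53 CPM against 1.801 and 0.705 CPM). Opcml had 1259 and 745 CPM against 182 and 135 CPM, and the calcium channel gene Cacna1e had 169 and 181 CPM against 21.2 and 34.2 CPM. The low side held Kcnip4, a potassium channel-interacting protein, Cux2, Unc5d and Reln among its first genes. Against migrating neurons, with at least 6 UMIs of Nrp1, Rnd2 and Ndst3 (2924 in WT and 2590 in cKO), 329 of 12254 genes were higher and 386 lower by the same measure. Mc4r, the melanocortin receptor, led with 14.8 and 20.8 CPM against 1.21 and 2.18 CPM, before Ndrg1 and Nin.

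The remaining values compare the cKO with the WT library within the Hs3st4-low neurons. At a log2 ratio of cKO over WT of at least 0.5, 161 of 9122 genes (1.76%) were higher in cKO, and at -0.5 or below 128 (1.40%) were lower, with a median of -0.01 over all genes. These shares are the background for each count of list members below and were not matched for gene length. Among the given markers Opcml was lower in cKO and Kctd8 higher, past that limit. The log2 ratio was -0.76 (-0.80 to -0.72) for Opcml, 0.61 (0.49 to 0.73) for Kctd8, 0.33 (0.28 to 0.38) for Bcl11b, -0.18 (-0.24 to -0.13) for Ldb2 and -0.17 (-0.24 to -0.10) for Fezf2. So the markers did not move together between the libraries: 2 were higher and 3 lower in cKO. In vascular and immune cells (118 in WT and 124 in cKO), which should lack Opcml, it was also lower in cKO, at 227 and 90.6 CPM, and in GE cells it was at 59.9 and 59.0 CPM; the part of free RNA was not tested.

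Syncrip itself (chr9:88447009-88482574, minus strand) stood at 290 CPM (280 to 301) in WT neurons and 325 CPM (315 to 336) in cKO in the Hs3st4-low neurons, with a ratio of 0.17 (0.09 to 0.24) on the log2 scale. Its ratio in GE cells was -0.26 (-0.34 to -0.18). Since transcripts were counted from their 3′ ends and the loxP sites flank exons 2, 3 and 4, these levels do not check the deletion.

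Some of the Hs3st4-low neurons held transcripts of progenitors, which dividing cells and intermediate progenitors make and settled neurons lack. With at least 5 UMIs over 12 cell cycle genes, or at least 10 over Eomes, Neurog1, Neurog2, Btg2 and Insm1, limits chosen after the values had been seen, 120 WT cells (18.3%, 15.4 to 21.4) and 93 cKO cells (13.2%, 10.8 to 16.0) were set apart. The limit on cell cycle genes was met by 57 WT (8.68%) and 59 cKO cells (8.40%). The limit on genes of intermediate progenitors was met by 97 WT (14.8%, 12.1 to 17.7) and 57 cKO cells (8.12%, 6.21 to 10.4). A total of 118 WT and 121 cKO cells lay within 2 UMIs of a limit. Eomes (Tbr2), the defining factor of intermediate progenitors, stood at 554 and 297 CPM in the cells set apart and at 4.28 and 4.63 CPM in the rest. In the same cells Top2a, a topoisomerase of dividing cells, had 245 and 405 CPM, against 3.05 and 4.09 CPM in the rest. Both genes were among those used to set the cells apart, so these gaps follow from the split. Among genes not used for it, the cells set apart had Bcl11b at 122 and 178 CPM and Ldb2 at 105 and 135 CPM, far below the rest, which goes against the label of deep-layer neurons for these cells. Where leaving them out brought a ratio given below from past 0.5 to within it, or moved a ratio past 0.5 by more than 1.5 times, the ratio or the levels without them are given too.

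Without these cells, 537 WT and 609 cKO neurons remained. In them the log2 ratio of cKO over WT was -0.80 (-0.84 to -0.76) for Opcml, 0.50 (0.38 to 0.62) for Kctd8, 0.29 (0.24 to 0.34) for Bcl11b, -0.24 (-0.29 to -0.18) for Ldb2 and -0.19 (-0.26 to -0.11) for Fezf2. The directions of the 5 markers were those of all Hs3st4-low neurons. The level of Bcl11b in the remaining neurons was 672 CPM in WT neurons and 821 CPM in cKO, and that of Opcml 1493 and 856 CPM.

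Of 12 genes of subcerebral layer V neurons, 10 had at least 200 UMIs, none was higher past 0.5 in cKO and 2 were lower, against 1.76% and 1.40% of all genes, the median being -0.19. The 2 were S100a10, a calcium-binding protein of corticospinal neurons, at 43.0 CPM in WT neurons and 23.7 CPM in cKO (log2 ratio -0.86, -1.09 to -0.64), and Crym at 14.9 and 8.53 CPM (-0.80, -1.19 to -0.42). Bcl11b went the other way. Pcp4 (-0.14, -0.36 to 0.08), Crim1 (-0.19, -0.37 to -0.01), Otx1 (-0.05, -0.38 to 0.28) and Igfbp4 (0.27, -0.09 to 0.64) stood near 0. Diaph3, a formin, was at -0.49 (-0.74 to -0.24) in all Hs3st4-low neurons and at -1.76 (-2.28 to -1.26) without the cells holding progenitor transcripts. Pou3f1 stood at -0.24 (-0.36 to -0.11) and without them at -0.10. Cntn6 and Etv1 had too few UMIs to be counted.

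Of 9 corticothalamic genes, 7 had at least 200 UMIs, 1 was higher and none lower past 0.5, with a median of 0.10. The gene past the limit was Grik3, a kainate receptor subunit, at 62.2 CPM in WT neurons and 93.9 CPM in cKO (0.59, 0.45 to 0.74). Tbr1 had 120 CPM (113 to 127) in WT neurons and 153 CPM (146 to 161) in cKO (0.35, 0.25 to 0.46), and Sox5 stood at 0.22 (0.19 to 0.24). Tle4 (0.10, -0.05 to 0.24) and Zfpm2 (0.03, -0.09 to 0.14) differed by less than counting error. Foxp2, a forkhead factor that GE cells and some progenitors hold too, was at -0.37 (-0.48 to -0.26) in all Hs3st4-low neurons but at 0.14 (0.00 to 0.28) without the cells holding progenitor transcripts, in which it had 420 and 205 CPM. Of 8 subplate genes listed, 7 were found by symbol and 3 could be counted: Nr4a2 was higher in cKO (10.1 and 17.1 CPM, 0.75, 0.40 to 1.12), Nxph3 stood at 0.34 and Lpar1 at -0.03. Nr4a2 was at 0.27 without the cells holding progenitor transcripts. Cplx3 had 0 UMIs.

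Upper layer and callosal genes were the layer list with most members past the limit. Of 12 genes, 4 were lower in cKO and 1 higher, against 1.40% and 1.76% of all genes, with a median of -0.26. Pou3f2 (Brn2), a POU factor of upper layer neurons and their progenitors, had 128 CPM (121 to 135) in WT neurons and 54.2 CPM (49.97 to 58.7) in cKO, a log2 ratio of -1.24 (-1.38 to -1.10). Without the cells holding progenitor transcripts it had 96.6 and 31.0 CPM (-1.64, -1.84 to -1.44). Its relative Pou3f3 stood at -0.52 (-0.62 to -0.42) and Mef2c, a MADS-box factor, at -0.50 (-0.57 to -0.43). Unc5d, the other gene past the limit, was at -0.91 (-1.04 to -0.79) but at 0.12 (-0.06 to 0.29) without the cells holding progenitor transcripts, in which it had 501 CPM in WT neurons and 132 CPM in cKO. Lpl, a lipoprotein lipase, was higher in cKO (10.6 and 20.2 CPM, 0.93, 0.59 to 1.28). Cux1 (-0.24, -0.40 to -0.09), Cux2 (-0.27, -0.56 to 0.02), Lhx2 (-0.09, -0.19 to 0.00), Rorb (0.19, 0.04 to 0.34), Epha3 (0.22, 0.17 to 0.28) and Inhba (0.37, 0.15 to 0.59) were within the limit. Without the cells holding progenitor transcripts the median of the list was 0.04, so its direction rests on them, while Pou3f2, Pou3f3 and Mef2c were lower in cKO either way.

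**Figure D3:**
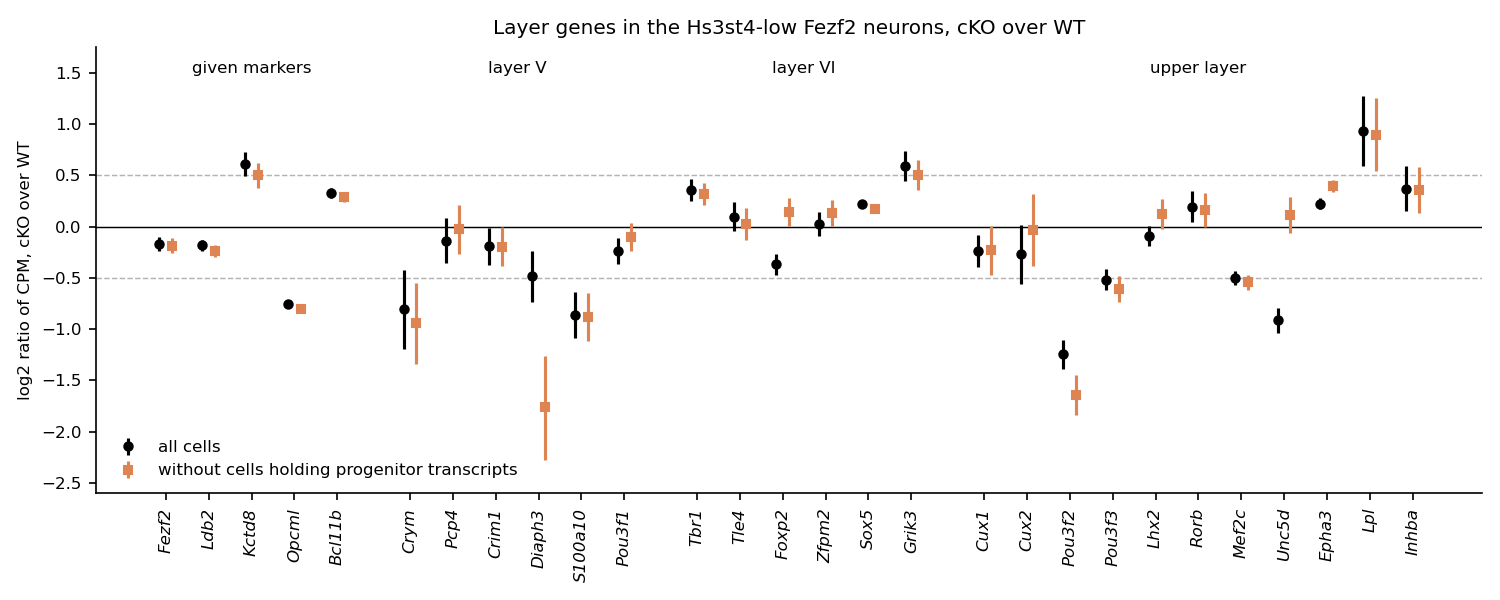
Log2 ratio of CPM, cKO over WT (y axis), of marker and layer genes (x axis) in all Hs3st4-low neurons (black) and without the cells holding progenitor transcripts (orange); bars are exact conditional 95% intervals and dashed lines mark 0.5 and -0.5. Opcml and Pou3f2 lie below -0.5 in both, Kctd8 and Grik3 at about 0.5 or above, and Unc5d, Foxp2 and Diaph3 differ most between the 2 sets of cells.

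Among 8 genes of the network of repressors that separates layer fates, none passed 0.5 in either direction, and the median was 0.21. Tbr1 (0.35), Bcl11b (0.33), Lmo4 (0.31, 0.18 to 0.44), Sox5 (0.22) and Ski (0.19, 0.03 to 0.36), a transcriptional corepressor, were higher in cKO. Bcl11a (0.02, -0.03 to 0.06) and Tle4 (0.10) did not differ beyond counting error.

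Tbr1 and Bcl11b mark corticothalamic and subcerebral neurons, and transcripts of both are often found in 1 young neuron. Each cell was thinned to 6000 UMIs, which left 613 WT and 662 cKO neurons. Tbr1 and Bcl11b were found together in 35.9% (32.1 to 39.8) of WT neurons and 52.0% (48.1 to 55.8) of cKO neurons. Bcl11b alone had a UMI in 37.8% (34.0 to 41.8) of WT neurons and 33.8% (30.2 to 37.6) of cKO neurons, and Tbr1 alone in 6.85% (4.98 to 9.15) and 2.72% (1.62 to 4.26). Neurons with neither were 19.4% (16.4 to 22.8) and 11.5% (9.15 to 14.2). The share with both was thus higher in cKO by more than counting error, and the shares with Tbr1 alone and with neither were lower. Without the cells holding progenitor transcripts, 496 WT and 571 cKO neurons were left, of which 43.3% (38.9 to 47.8) and 58.7% (54.5 to 62.7) held both, 6.65% and 2.63% Tbr1 alone and 8.47% (6.17 to 11.3) and 2.63% (1.48 to 4.30) neither. In vascular and immune cells, which should lack both, 18.2% in WT and 16.8% in cKO had a Bcl11b UMI and 10.2% and 14.9% a Tbr1 UMI at the same depth. The shares in the neurons, 73.7% and 85.8% for Bcl11b and 42.7% (38.8 to 46.8) and 54.7% (50.8 to 58.5) for Tbr1, lay above these. Each gene, counted by itself, thus had a UMI in a larger share of cKO than of WT neurons. The part of this in the share with both was not tested. In Hs3st4-high neurons Tbr1 was found with Bcl11b in 75.8% (71.3 to 80.0) and 78.6% (74.4 to 82.4) and without it in 0.771% and 0.941%.

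**Figure D4:**
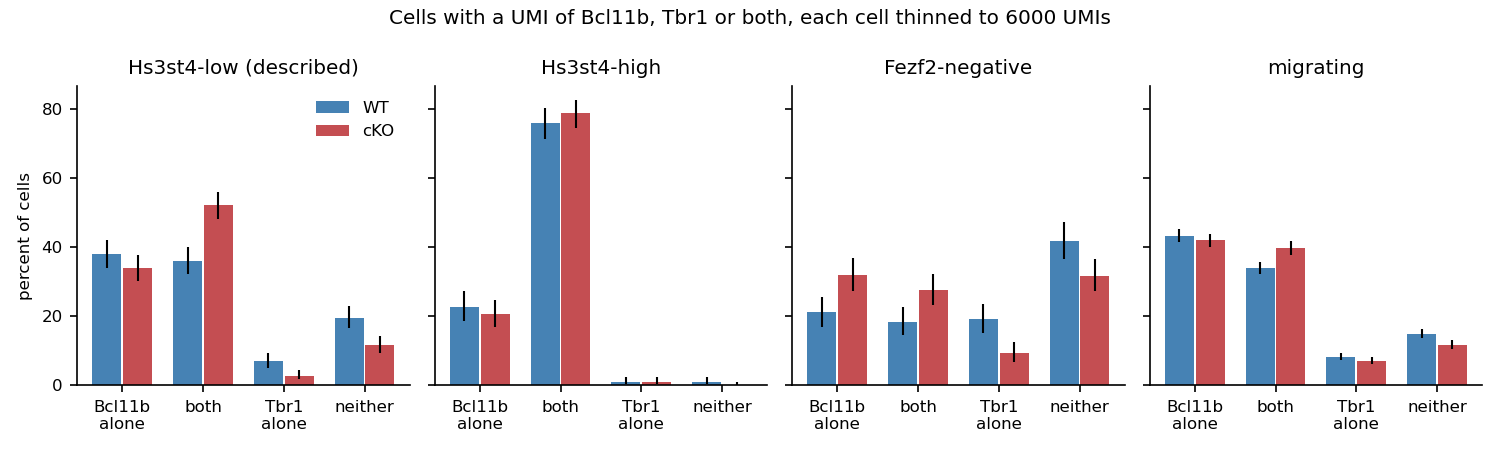
Percent of cells (y axis) with a UMI of Bcl11b alone, both genes, Tbr1 alone or neither (x axis) in 4 groups of neurons of WT (blue) and cKO (red), each cell thinned to 6000 UMIs; bars on the columns are exact binomial 95% intervals. Among the Hs3st4-low neurons 35.9% of WT and 52.0% of cKO cells hold both genes, and the Fezf2-negative neurons show 18.2% and 27.4%.

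A Bcl11b UMI was missing from a smaller share of cKO than of WT neurons, and at these depths a cell with no UMI may still have expressed the gene. Not thinned, 83.0% (79.9 to 85.8) of WT and 91.6% (89.3 to 93.5) of cKO neurons had one. After thinning, 161 of 613 WT neurons (26.3%) had no Bcl11b UMI against 94 of 662 cKO neurons (14.2%), and 308 (50.2%) against 442 (66.8%) had 3 or more. Cells holding progenitor transcripts, more frequent in WT, were 86 of the 161 WT and 64 of the 94 cKO neurons with no Bcl11b UMI. Without them the share with no Bcl11b UMI was 15.1% (12.1 to 18.6) in WT and 5.25% (3.57 to 7.42) in cKO, and that with 3 or more 60.1% (55.6 to 64.4) and 75.1% (71.4 to 78.6). In all neurons with 3 or more, Bcl11b stood at 929 CPM in WT neurons and 956 CPM in cKO, a log2 ratio of 0.04 (-0.01 to 0.10). These neurons were picked on their Bcl11b UMIs, so this closeness follows in part from the split. The ratio of Bcl11b was -0.01 (-0.42 to 0.40) with 0 and 0.38 (0.23 to 0.52) with 1 or 2 Bcl11b UMIs. Without the cells holding progenitor transcripts these were 0.53 (0.03 to 1.03) and 0.34 (0.19 to 0.49). Opcml was lower in cKO in neurons with 0, with 1 or 2 and with 3 or more Bcl11b UMIs, at -1.34 (-1.59 to -1.10), -0.56 (-0.66 to -0.46) and -1.05 (-1.10 to -1.01). Pou3f2 was lower in each as well, at -0.40, -1.20 and -1.64. When the cells holding progenitor transcripts were left out, Opcml stood at -0.53 (-0.81 to -0.27), -0.68 (-0.79 to -0.57) and -1.04 (-1.09 to -0.999) in the same order, and Pou3f2 at -1.49, -1.58 and -1.53.

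For Kctd8 the share with a UMI at 6000 UMIs was 19.6% (16.5 to 22.9) and 30.7% (27.2 to 34.3), against 3.41% and 3.96% in vascular and immune cells. For Opcml it was 69.2% (65.3 to 72.8) and 65.4% (61.6 to 69.0), so that its lower level in cKO came with nearly as many neurons holding a UMI. The background share of Opcml in vascular and immune cells was 19.3% and 11.9%.

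With Xist, Y-linked, mitochondrial and predicted genes left aside, the genes with the largest ratios among those with at least 200 UMIs were of varied function. On the high side in cKO were Tafa1, Ttc7, Hba-a1, Hba-a2, Reln, Thsd7b, Mthfd1l, Hmga2, Plxnd1, Mt3, Slc15a2 and Il1rapl2. Mthfd1l, a mitochondrial enzyme of folate metabolism, was the most abundant of them, at 94.0 CPM (88.1 to 100.1) in WT neurons and 280 CPM (271 to 290) in cKO (1.58, 1.47 to 1.68). It had a UMI in 39.9% of WT and 56.8% of cKO neurons, and the neuron with most of them held 3.38% in WT and 1.66% in cKO. Ttc7, a scaffold of a lipid kinase complex, had 10.6 and 44.5 CPM (2.07, 1.77 to 2.38), and Plxnd1, a semaphorin receptor, 5.25 and 15.1 CPM (1.52, 1.07 to 2.00). Tafa1 had 2.58 and 24.7 CPM (3.26, 2.68 to 3.90), with 38.5% and 27.6% of its UMIs in 1 neuron each.

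For several of these genes 1 cell or the cells with progenitor transcripts held most UMIs. In cKO a single neuron held 65.6% of the UMIs of Hba-a1, and the same share was 54.7% for Hba-a2, 47.2% for Reln and 39.2% for Thsd7b, with one neuron per gene. With the cells holding progenitor transcripts left out, the ratio of Reln went from 1.76 to 1.05 (0.69 to 1.43) and that of Thsd7b from 1.73 to 3.48 (2.29 to 4.97), the latter on 6 and 76 UMIs. Reln turned direction, to -0.34 in neurons with no Hs3st4 UMI and to -0.36 with the rule applied to thinned cells, and Hmga2 to -0.045 with the latter. Hmga2, a chromatin protein of early progenitors, had 26.8 and 92.1 CPM in the cells holding progenitor transcripts and 0.244 and 0.323 CPM in the rest, on 2 and 3 UMIs. Mt3, a metallothionein, had 83.0 and 266 CPM in those cells and 2.93 and 6.35 CPM in the rest.

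On the low side in cKO were Gucy1a1, Ebf1, Kif26b, Mfap4, Slc4a4, Slc17a6, Pou3f2, Egfem1, Cdkn1c, Alk and Oma1, among others. Gucy1a1, a subunit of the nitric oxide receptor, had 29.2 and 6.91 CPM (-2.08, -2.46 to -1.71), and -2.14 without the cells holding progenitor transcripts. Slc4a4, a bicarbonate transporter, had 46.5 and 18.0 CPM (-1.37, -1.61 to -1.12), and Cdkn1c (p57), an inhibitor of cell cycle entry, 123 and 56.9 CPM (-1.11, -1.25 to -0.98). Oma1, a mitochondrial protease, had 44.6 and 21.2 CPM (-1.07, -1.31 to -0.84). The cells holding progenitor transcripts carried Kif26b (327 and 114 CPM, against 6.60 and 4.09 CPM in the rest) and Mfap4 (103 and 32.9 CPM, against 3.05 and 2.69 CPM), and the ratio of Mfap4 went from -1.51 to -0.18 (-1.04 to 0.68) without them. In WT they also held most UMIs of Slc17a6 (VGLUT2), a vesicular glutamate transporter whose ratio went from -1.33 to -0.43 without them. One neuron held 36.1% of the Ebf1 UMIs in WT and 64.6% in cKO, and for Egfem1 35.4% and 61.4%. The direction of Ebf1 turned to 0.36 with the mean over cells, and that of Alk to 0.45 with the rule applied to thinned cells.

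Most genes of axon guidance stayed within the limit. Of 39 genes, 34 could be counted, 5 were higher and 1 lower in cKO past 0.5, against 1.76% and 1.40% of all genes, and the median was 0.10. Slit2 and Slit3, secreted repellents of the Robo receptors, were higher in cKO, at 25.8 and 50.7 CPM (0.98, 0.76 to 1.19) and at 52.0 and 83.1 CPM (0.68, 0.52 to 0.83). Slit2, without the cells holding progenitor transcripts, was at 11.2 and 47.8 CPM (2.09, 1.76 to 2.43). The receptors Robo1 (-0.36, -0.41 to -0.31) and Robo2 (-0.42, -0.47 to -0.37) were lower in cKO within the limit. The semaphorin receptors Nrp2 (6.44 and 14.7 CPM, 1.19, 0.77 to 1.63) and Plxnd1 and the transmembrane semaphorin Sema6a (35.7 and 53.0 CPM, 0.57, 0.38 to 0.76) were the others past it on the high side, and Unc5d the gene on the low side. Sema6a came within the limit without the cells holding progenitor transcripts, at 0.45 (0.24 to 0.66). Dcc, the netrin receptor, stood at -0.06 (-0.09 to -0.04) and at 0.09 (0.06 to 0.12) without the cells holding progenitor transcripts, its relative Neo1 at 0.38 (0.30 to 0.46) and Epha5, an ephrin receptor, at 0.39 (0.35 to 0.43).

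Of 28 adhesion genes 25 were counted, of which 6 were higher and 5 lower, against 1.76% and 1.40% of all genes, with a median of 0.05. Within the IgLON family the members differed in direction: Opcml was lower in cKO, Negr1 (87.4 and 177 CPM, 1.02, 0.91 to 1.14) and Lsamp (515 and 786 CPM, 0.61, 0.56 to 0.66) were higher, and Ntm (-0.06, -0.09 to -0.02) and Iglon5 (0.10, -0.14 to 0.34) stood near 0. Negr1 was at 1.47 and Lsamp at 0.57 without the cells holding progenitor transcripts. Among cadherins Cdh4 was higher (0.71, 0.59 to 0.83) and Cdh8 lower (-0.73, -0.87 to -0.59), and Cdh13, at 940 and 1087 CPM, stood at 0.21 (0.17 to 0.25). Pcdh10 (0.77, 0.50 to 1.03), Pcdh19 (0.55, 0.40 to 0.69) and Ncam2 (0.61, 0.47 to 0.75) were higher, and Pcdh7 (-0.56, -0.66 to -0.45) lower. Without the cells holding progenitor transcripts Pcdh10 was at 0.85 (0.52 to 1.18), while Pcdh19 (0.49, 0.34 to 0.64), Ncam2 (0.44, 0.28 to 0.60) and Pcdh7 (-0.45, -0.57 to -0.34) were within the limit. For Pcdh15 and Cntn5, also lower, 1 WT neuron held 50.5% and 42.7% of the UMIs. The cells holding progenitor transcripts had 188 WT and 90 cKO UMIs of Pcdh15, and without them its ratio was 0.76 (-0.31 to 1.90) on 12 and 23 UMIs.

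Channel and receptor genes, 33 of 37 counted, had 3 higher and 2 lower, against 1.76% and 1.40% of all genes, with a median of -0.03. Kctd8, Grik3 and Grin2a (13.97 and 30.8 CPM, 1.14, 0.85 to 1.43) were higher, and Kcnip4 (-0.96, -1.34 to -0.58), of whose WT UMIs 1 neuron held 31.5%, was among those lower. Kcnip4 was at -1.89 (-2.48 to -1.33) without the cells holding progenitor transcripts. The GABA-B receptor genes Gabbr1 (-0.11, -0.24 to 0.02) and Gabbr2 (0.29, 0.05 to 0.53), whose products Kctd8 binds, stayed within the limit. Of 19 synaptic genes counted, Syn2 (26.1 and 57.8 CPM, 1.15, 0.94 to 1.36) and Lrrtm4 (208 and 321 CPM, 0.62, 0.55 to 0.70) were higher and Nrxn3 lower. Nrxn3 stood at -0.73 in all Hs3st4-low neurons and at -0.17 without the cells holding progenitor transcripts, and 1 WT neuron held 18.5% of its UMIs. Among 10 genes of excitatory neurons, Slc17a7 (VGLUT1) was higher (34.4 and 52.1 CPM, 0.60, 0.40 to 0.79) and Slc17a6 lower. Neurod2 (0.07), Bhlhe22 (0.09) and Zbtb18 (0.00) were close to 0.

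The neuronal cytoskeleton and RNA-binding protein genes mostly stayed within the limit. Of 23 cytoskeleton genes, none was higher and 1 lower, the neurofilament gene Nefl (22.7 and 14.6 CPM, -0.63, -0.93 to -0.34), and the median was -0.05. Stmn2, a growth cone protein that destabilizes microtubules, stood at -0.35 (-0.39 to -0.32) and Tubb3 at -0.04 (-0.07 to -0.01). Of 20 RNA-binding protein genes none passed the limit, with a median of -0.07; Elavl2 (-0.47, -0.54 to -0.40) and Elavl4 (-0.46, -0.54 to -0.37) were nearest to it, and without the cells holding progenitor transcripts they stood at -0.23 and -0.06. Hnrnpr, the closest relative of Syncrip, was at 0.05 (-0.03 to 0.12).

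Factors of late progenitor fate were measured as well, since the study follows them in progenitors. Nfia stood at 0.24 (0.21 to 0.27), Nfib at 0.05 (0.03 to 0.07), Nfix at -0.10 (-0.14 to -0.06) and Nfic at -0.06 (-0.36 to 0.24), and only Zbtb20 of the 5 passed 0.5, at 176 and 117 CPM (-0.59, -0.70 to -0.49). Zbtb20 had 784 and 571 CPM in the cells holding progenitor transcripts and 34.2 and 25.6 CPM in the rest, where its ratio was -0.42 (-0.67 to -0.16). The study also names genes for temporal identity or labels them in its comparison of progenitors. Of 17 such genes counted, 5 were higher (Hmga2, Hes1, Lsamp, Ncam2 and Top2a) and 2 lower (Zbtb20 and Nedd4). Those labelled in that comparison were chosen on these libraries, while others were named from published work or with the cultured progenitors. Nedd4, a ubiquitin ligase, stood at 291 and 202 CPM (-0.52, -0.60 to -0.44), and at -0.50 without the cells holding progenitor transcripts. Hes1, a Notch effector, stood at 0.93 (0.54 to 1.33) and without them at -1.01 (-2.37 to 0.25) on 16 and 9 UMIs, and Top2a at 0.54 and 0.42 (-0.34 to 1.21) on 25 and 38 UMIs. The direction of Top2a turned to -0.14 with at least 3 Fezf2 UMIs and to -0.36 with the rule applied to thinned cells.

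Among genes of areal position, the median of the 8 counted was 0.23. Nr2f2 (COUP-TFII) was higher in cKO (19.2 and 32.3 CPM, 0.75, 0.49 to 1.01) and Crym lower. Nr2f1 (COUP-TFI), a factor of caudal cortex, stood at 0.36 (0.27 to 0.45), Lmo3 at 0.35 and Meis2 at 0.06. Nr2f2 was at 0.38 and Nr2f1 at 0.24 without the cells holding progenitor transcripts. The region of the cortex from which each embryo's cells came cannot be told apart from genotype.

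The same ratios were taken in other groups of cells of the same 2 libraries. The background differed between groups: 1.55% of genes were higher and 1.23% lower in Hs3st4-high neurons, 2.47% and 1.72% in Fezf2-negative neurons, 2.84% and 1.94% in migrating neurons and 0.943% and 1.02% in GE cells. Opcml was lower in cKO in Hs3st4-high (-0.59, -0.62 to -0.56), Fezf2-negative (-0.43, -0.57 to -0.29) and migrating neurons (-1.26, -1.30 to -1.22) and stood at -0.02 (-0.20 to 0.16) in GE cells. Pou3f2 was lower in these 4 groups too, at -1.13, -0.92, -0.62 and -0.46. Bcl11b was at -0.04 (-0.08 to 0.01) in Hs3st4-high neurons, 0.99 (0.86 to 1.12) in Fezf2-negative neurons and 0.07 (0.04 to 0.10) in migrating neurons. Mthfd1l was higher in each group, from 0.53 (0.21 to 0.86) in GE cells to 1.90 (1.64 to 2.16) in Fezf2-negative neurons. Lsamp was higher in Hs3st4-high neurons (0.92, 0.87 to 0.97) and stood at -0.11 and -0.14 in Fezf2-negative and migrating neurons. Cdkn1c was lower in Hs3st4-high (-1.06), Fezf2-negative (-0.64) and migrating neurons (-1.08) and stood at 0.09 (-0.04 to 0.22) in GE cells.

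**Figure D5:**
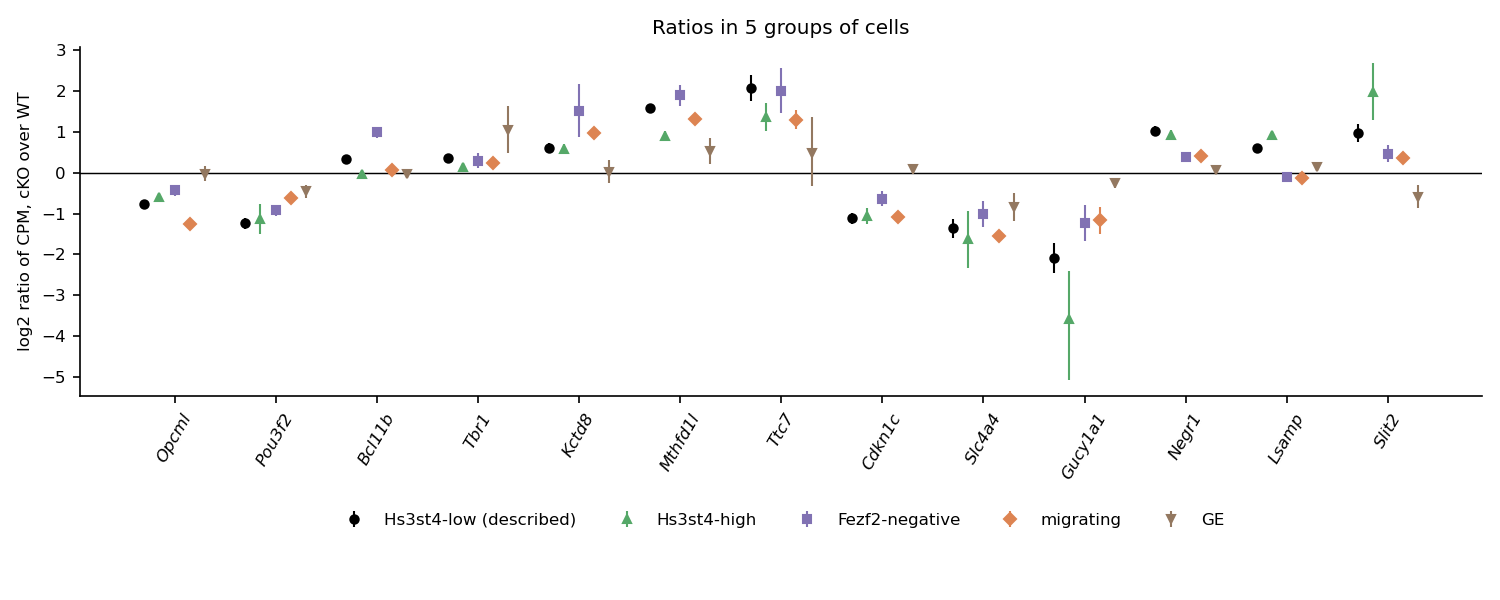
Log2 ratio of CPM, cKO over WT (y axis), of 13 genes (x axis) in the Hs3st4-low neurons (black) and 4 other groups of cells; bars are exact conditional 95% intervals. Opcml and Cdkn1c lie below 0 in the 4 groups of cortical neurons and at about 0 in GE cells, and Slit2 lies above 0 in the neurons and below 0 in GE cells (-0.59).

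Markers of other cell types summed lower in the Hs3st4-low neurons than in the other kept cells of each library. The 10 apical progenitor markers summed to 704 CPM in WT neurons and 871 CPM in cKO, against 1445 and 1776 CPM in the other cells, with Vim the most abundant, and the 7 intermediate progenitor markers to 667 and 501 CPM, against 821 and 872 CPM. Over 12 cell cycle genes the sums were 388 and 481 CPM. The 15 GE and interneuron markers summed to 74.0 and 46.4 CPM, against 529 and 683 CPM, with Lhx8 and Nkx2-1 at 0 UMIs, and Ebf1 was their most abundant gene in WT. The 7 Cajal-Retzius markers summed to 17.2 and 50.5 CPM, most of it Reln, and Trp73, a defining gene of these cells, had 0 UMIs in WT and 18 in cKO. Markers of microglia (9.22 and 9.69 CPM), endothelial cells (7.04 and 8.17 CPM) and pericytes and fibroblasts (3.37 and 4.85 CPM) were near 0. The 7 red blood cell genes summed to 67.7 and 185 CPM, against 538 and 710 CPM. Of 12 immediate early and stress genes 7 were counted, with Fos (-0.62, -0.95 to -0.29) and Egr1 (-0.94, -1.27 to -0.62) lower in cKO and none higher, and 1 cKO neuron held 24.2% of the Egr1 UMIs. Without the cells holding progenitor transcripts Fos stood at -0.32 (-0.71 to 0.07) and Egr1 at 0.26 (-0.30 to 0.82) on 48 and 65 UMIs, neither beyond counting error, and in those cells Egr1 had 175 UMIs in WT and 63 in cKO. The part of these other cells in the ratios above was not tested, beyond the values without the cells holding progenitor transcripts.

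Ratios were also summarised by the length of the gene. The 1606 genes spanning at least 100 kb (GENCODE M21) took 23.2% of UMIs in WT and 22.6% in cKO, and their median log2 ratio was -0.03, with 74 higher and 55 lower. The 7512 shorter genes had a median of 0.00, with 86 higher and 73 lower. Genes past the limit were thus a larger share of the long genes than of the shorter genes, in both directions. The part of gene length in the counts of list members above was not tested.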

How the data were processed

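Single-cell suspensions of E14.5 dorsal cortex, 1 WT and 1 cKO embryo, were sequenced by the study with 10x 3′ chemistry. The values are raw UMI counts per gene and barcode, deposited by the authors as matrices whose header names Cell Ranger 7.0.0; the submitters' processing notes name the build mm10, and the annotation and intron setting were not found. The matrices held 8289 WT and 9659 cKO barcodes, more than the preparation aimed to recover, and 7554 and 8781 were kept. The study's bulk RNA-seq and LACE-seq were not used here.

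UMIs were summed over cells per library, scaled to CPM and compared as log2 ratios for genes with at least 200 UMIs, using Python 3.11.15, numpy 2.4.6, scipy 1.17.1 and pandas 2.3.3. Exact Poisson, binomial and conditional binomial (Clopper-Pearson) 95% intervals cover counting error only. For shares of cells with a UMI each cell was thinned to 6000 UMIs. Scrublet (scanpy 1.11.5) called doublets, which were left out only as an alternative. Named genes were the rule and marker genes, the members of the gene lists, and by rank the 20 genes furthest above and 10 furthest below the other cells, the 12 highest and 12 lowest ratios of cKO over WT, and 12 per direction against each other group. The members and lists were chosen with earlier results of these data known, and the limits for progenitor transcripts, like leaving out the cell with most UMIs of a gene, after their values were seen. Positions are from GENCODE M21 (GRCm38). The scripts were tested on simulated data. Some genes are not reported here.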

Additional observations from a re-analysis of the deposited data

Results flagged for a closer look

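Slit2, a secreted Robo ligand, had opposite directions in cells inside and outside the Emx1-Cre lineage: its log2 ratio of cKO over WT was 0.98 in the Hs3st4-low neurons and -0.59 in GE cells. Thsd7b stood at 1.73 in the Hs3st4-low neurons, where 1 cKO cell held 39.2% of its UMIs, and at -0.53 in GE cells. With 1 library per genotype neither difference was tested.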

How the results depend on the processing

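No paired analysis was possible because each genotype had 1 single-cell library and no test was made. Results were recomputed under other limits of the rule, other cell filters, other scalings and other count minimums, and each depends on 1 embryo per genotype. Of values that answer a comparison, 113 stayed within the limit set for them, 29 moved further and 2 reversed. The limit was the counting interval for shares, 1.5 times for counts of genes and a fixed log2 difference for medians of lists. Of single-gene ratios, 715 stayed within their counting interval, 122 moved further and 10 reversed. The share of Hs3st4-low neurons in WT and cKO was 6.49% and 5.77% with at least 3 Fezf2 UMIs, 7.44% and 6.26% with no Hs3st4 UMI, and 7.11% and 6.94% without cells holding progenitor transcripts. The count of genes above the other cells was 54 with no Hs3st4 UMI, 143 with the rule on thinned cells, 57 with at least 1000 UMIs, and 166 without cells holding progenitor transcripts. Higher and lower genes in cKO numbered 471 and 351 at a minimum of 50 UMIs, and 41 and 37 at 1000. With no Hs3st4 UMI the adhesion list had a median of -0.061 and intermediate progenitor markers -0.33. With the rule on thinned cells the medians were 0.23 for corticothalamic, -0.0092 for upper layer and -0.081 for intermediate progenitor genes, and with the mean over cells 0.25 for corticothalamic genes. Without cells holding progenitor transcripts upper layer genes (0.042) and intermediate progenitor markers (0.073) reversed, the latter by construction, since most of these markers were used to leave out the cells. The share with both Tbr1 and Bcl11b followed depth: it was 20.7% in WT and 30.2% in cKO at 3000 UMIs, 54.2% and 67.3% at 10000 UMIs, and 61.3% and 74.8% not thinned. Without cells holding progenitor transcripts it was 43.3% and 58.7%. That with Tbr1 alone was 4.86% in cKO at 3000 UMIs. A single gene was counted as reversed only if its reported ratio was past 0.5. Within 0.5, Foxp2, Cux1, Cux2, Lhx2, Pou3f1, Otx1 and Hes5, among others, also changed sign in some setting and are not listed. Single genes reversed as follows: Top2a (-0.14) with at least 3 Fezf2 UMIs; Reln (-0.34) with no Hs3st4 UMI; Top2a (-0.36), Reln (-0.36), Cntn6 (0.35), Hmga2 (-0.045) and Alk (0.45) with the rule on thinned cells; Ebf1 (0.36) with the mean over cells; Unc5d (0.12) and Hes1 (-1.01) without cells holding progenitor transcripts. The cause was not tested, beyond the change of cells or count minimum that each alternative makes.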
